A study of Rattus norvegicus with 24 samples.

Results

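The voltage-gated calcium channels of dorsal root ganglion (DRG) neurons were followed through 10 genes of their subunits, chosen by name from the 32883 genes listed in the count tables of single rat neurons: Cacna2d1, Cacna2d2, Cacna2d3, Cacna1a, Cacna1b, Cacna1c, Cacna1d, Cacna1e, Cacna1h and Cacnb3. All 10 were listed in every library and had counts. Levels were taken from the 1433 of 1464 cells that held at least 500 genes and at least 1000 UMIs (unique molecular identifiers, which count captured RNA molecules), with under 5% of UMIs from the 13 mitochondrial protein genes. Gene names and counts are those of the deposited tables.

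The study used male Sprague-Dawley (SD) rats, whose age is not given in the labels, and spared nerve crush (SNC), in which the tibial and common peroneal branches of the sciatic nerve were crushed and the sural branch was left intact. Sham rats had the nerve exposed and not injured. Before surgery the dyes DiI and DiO had been injected into the nerve branches, one dye for the crushed and the other for the spared branches, and single dye-labelled lumbar DRG neurons were later picked by hand with a pipette. These labelled neurons came from 4 sham DRG samples and from 4 samples at 1 day, 3 at 3 days and 5 at 7 days after SNC, in 17 libraries. A further 7 libraries, called added sham here, held neurons of sham rats taken on day 0 (3 libraries), day 1 (2), day 3 (1) and day 7 (1), and their labels carry the same protocol text as the others but no counts of dye-labelled cells. The names of the cells do not carry the dye, so directly and indirectly injured neurons were pooled in every value below. No label ties a library to a rat, and p-values therefore measure the spread between DRG samples, which may in part be technical.

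A voltage-gated calcium channel is built around a pore-forming α1 subunit, which opens when the membrane is depolarised, together with a cytoplasmic β subunit and an extracellular α2δ subunit that help bring the pore to the membrane and to release sites. In sensory neurons the N-type and P/Q-type pores start transmitter release in the spinal cord, the L-type and R-type pores add calcium entry during firing, and the low-threshold T-type pore shapes excitability near rest. The α2δ subunit made from Cacna2d1 is the binding site of gabapentin and pregabalin, drugs for neuropathic pain, and is known to become more abundant in injured sensory neurons in many rodent models.

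The labelled set held 930 cells after filtering, with a median of 239292 UMIs and 9133 genes per cell, and the added sham set held 503 cells with medians of 340145 UMIs and 10166 genes. Summed over its cells, a labelled DRG sample held 4002503 to 28975829 UMIs and an added sham library 14004381 to 40733436. The libraries shared no cell names. The summed level of 8 neuron markers was 6779 to 9270 CPM (UMIs of a gene scaled to 1000000 UMIs in all) in labelled samples and 5396 to 6305 CPM in added sham libraries, and that of 8 glial markers was 123 to 1351 CPM and 122 to 838 CPM. Sham replicate 1 stood apart among the labelled samples: it had 24 cells, the lowest total and the highest glial sum (1351 CPM). All samples at 1 and 3 days were reverse transcribed in the later of 2 calendar years by the study's list of samples, as were sham replicate 4 and 7 d replicates 5 and 6, and the other sham and 7 d samples in the earlier year, so that time after SNC and year were largely confounded.

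The 10 subunit genes fell into widely detected and sparse ones. At least 1 UMI of Cacna2d1 was found in 927 of 930 labelled cells, of Cacnb3 in 917, of Cacna1b in 867, of Cacna1a in 825 and of Cacna1c in 727. Cacna1d was detected in 506 cells, Cacna2d3 in 486, Cacna2d2 in 383 and Cacna1e in 258. Cacna1h, the T-type pore gene, was the sparsest, with 207 UMIs in 88 labelled cells (9.5%), against 1410 UMIs in 226 of 503 added sham cells (44.9%). The gap in Cacna1h remained when each cell was thinned to 20000 UMIs, at 1.2% of 886 labelled and 10.5% of 493 added sham cells. Thinned in the same way, Cacna2d1 was found in 99.3% of labelled and 90.1% of added sham cells.

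Neuron types were rebuilt by clustering the 2 sets apart and naming clusters from marker genes, so each name means only that the cluster resembled that type. The labelled set gave PEP1-like, PEP2-like and PEP3-like (peptidergic), NP-like (nonpeptidergic), Nppb/Il31ra and Sst/Il31ra SST-like (somatostatin), Shox2/Ntng1 and S100a16/Kcnv1 NF-like (neurofilament, the large myelinated neurons) and Trpm8 cold-like clusters, and a cluster in which all 8 glial markers were high, called glial-gene-high. Markers were called high against the other labelled cells. The PEP1-like cluster had 7 of 10 PEP1 markers high (Gal, Arg1, Cdkn1a, Thbd, Crisp3, Cck and Kit). Tac1, which with Gal defines PEP1 in the study, was not among them. Calca and Calcb, counted as PEP3 markers, were not high in it either. The PEP2-like, PEP3-like and NP-like clusters had 7 of 8, 11 of 12 and 7 of 8 of their own markers high. Some clusters also had high markers of other types. All 3 cold markers were high in the glial-gene-high cluster too, as in the Trpm8 cold-like one. The Shox2/Ntng1 NF-like cluster had 12 of 14 NF markers high, and also all 4 markers of c_pLTMR2, the study's putative low-threshold C-mechanoreceptors. The S100a16/Kcnv1 NF-like cluster had 8 of 14 NF markers high. Levels by type are CPM of the summed cells of a type in a DRG sample with at least 3 such cells, given as mean ± SD over samples. The members took part in the clustering, and their levels by type are a description with no test. Levels were compared within a gene and not between genes.

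Cacna2d1 was highest in the PEP1-like neurons, at 892 ± 193 CPM (n = 16 samples, 618 to 1432 CPM). The Trpm8 cold-like (874 ± 132, n = 5), PEP2-like (839 ± 153, n = 16) and Nppb/Il31ra SST-like neurons (779 ± 124, n = 12) followed. The glial-gene-high cluster (605 ± 136, n = 7) and PEP3-like neurons (600 ± 92.3, n = 11) lay in the middle of the order. The lower levels were in S100a16/Kcnv1 NF-like (467 ± 102.1, n = 15), Sst/Il31ra SST-like (457 ± 95.2, n = 8), Shox2/Ntng1 NF-like (380 ± 137, n = 12) and NP-like neurons (317 ± 61.0, n = 8). Neighbours in this order mostly did not differ beyond their spread: PEP1-like exceeded PEP2-like neurons in 7 of 16 samples, and Shox2/Ntng1 NF-like exceeded NP-like neurons in 5 of 7, by 57.7 ± 125 CPM. The ends did separate, since PEP1-like neurons were above NP-like neurons in 8 of 8 samples, by 525 ± 137 CPM, and above Shox2/Ntng1 NF-like neurons in 12 of 12, by 516 ± 156 CPM. Steps were also seen inside a class. The Nppb/Il31ra cluster exceeded the Sst/Il31ra cluster in 8 of 8 samples, by 297 ± 162 CPM, and the PEP2-like exceeded the PEP3-like neurons in 11 of 11, by 286 ± 164 CPM.

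**Figure D1:**
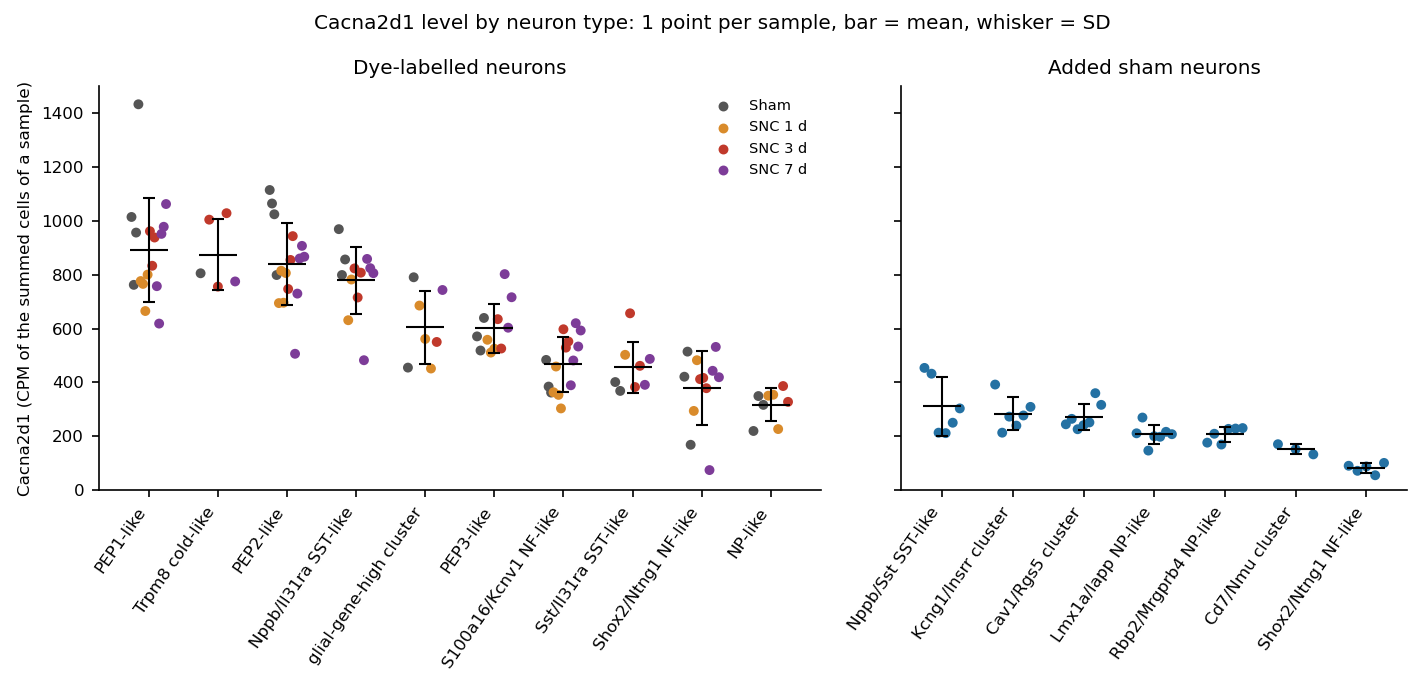
Cacna2d1 level (CPM) in each neuron type of the labelled and the added sham set, with 1 point for each DRG sample that held at least 3 cells of the type a bar for the mean and whiskers for the SD. In the labelled set the means run from 892 CPM in PEP1-like to 317 CPM in NP-like neurons, and in the added sham set from 311 to 81.9 CPM.

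In the added sham set Cacna2d1 also varied by type, at lower levels. It was highest in the Nppb/Sst SST-like cluster (311 ± 108 CPM, n = 6 libraries), followed by a Kcng1/Insrr cluster (284 ± 62.3, n = 6) and a Cav1/Rgs5 cluster (272 ± 48.3, n = 7), both left without a type name. The 2 NP-like clusters, led by Lmx1a/Iapp and by Rbp2/Mrgprb4, had 208 ± 35.9 (n = 7) and 207 ± 27.6 CPM (n = 6), and the Shox2/Ntng1 NF-like cluster had the lowest level, 81.9 ± 17.9 CPM (n = 5). SST-like exceeded NF-like neurons in 4 of 4 libraries, by 166 ± 38.9 CPM. The ratio of the highest to the lowest type mean was 2.82 in the labelled and 3.80 in the added sham set.

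Transcription of Cacna2d1 and of Sprr1a, whose levels are set against each other below, starts at promoters of different base composition, and both are shown for that reason. The sequences are RefSeq entries on the GRCr8 build, from 250 bases before to 50 bases after the start, 5′ to 3′ on the gene's strand, and the counts in the files were made on another build, Rnor_6.0. Capitals mark the letters GGGCGG on either strand (the GC box bound by Sp factors, overlaps counted) and TGANTCA (the AP-1 letters, which read alike on both strands). The Cacna2d1 entry, chr4:20330098-20330397 on the minus strand, is the first of 3 for the gene, has 78.3% G and C and holds 7 GC boxes and 0 AP-1 matches. The Sprr1a entry, chr2:180752576-180752875 on the minus strand, has 48.3% G and C and holds 1 GC box and 2 AP-1 matches, which begin 147 and 117 bases before the start.
Cacna2d1: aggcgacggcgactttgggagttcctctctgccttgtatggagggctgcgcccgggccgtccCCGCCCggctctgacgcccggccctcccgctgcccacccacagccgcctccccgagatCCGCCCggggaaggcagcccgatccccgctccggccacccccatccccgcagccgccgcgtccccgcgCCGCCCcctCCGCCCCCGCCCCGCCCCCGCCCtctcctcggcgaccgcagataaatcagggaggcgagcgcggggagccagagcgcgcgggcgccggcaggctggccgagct
Sprr1a: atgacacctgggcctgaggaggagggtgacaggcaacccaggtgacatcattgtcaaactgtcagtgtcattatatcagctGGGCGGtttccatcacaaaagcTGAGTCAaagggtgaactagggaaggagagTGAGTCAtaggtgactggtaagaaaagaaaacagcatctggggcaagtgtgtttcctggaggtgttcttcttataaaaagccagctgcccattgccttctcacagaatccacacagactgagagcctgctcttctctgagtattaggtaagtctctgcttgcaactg
Of the 10 calcium channel genes, 9 had promoter entries (11 in all, 51.7% to 88.7% G and C), 7 had a GC box and 0 had the AP-1 letters. Over all 33469 promoters of the table, 33.1% held a GC box and 7.33% the AP-1 letters. These are matches of letters in a fixed window and say nothing of whether a factor binds there.

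The other α2δ genes had different maps. Cacna2d2, which makes a second subunit that binds gabapentin, was highest in PEP3-like (10.8 ± 5.88 CPM, n = 11), NP-like (8.10 ± 3.98, n = 8) and Sst/Il31ra SST-like neurons (7.03 ± 2.47, n = 8) and lowest in Shox2/Ntng1 NF-like (1.94 ± 0.808, n = 12) and Trpm8 cold-like neurons (1.26 ± 1.69, n = 5). PEP3-like exceeded PEP1-like neurons in 11 of 11 samples, by 7.26 ± 6.42 CPM. Cacna2d3, whose product is not a gabapentin target, was highest in Shox2/Ntng1 NF-like neurons, at 82.8 ± 30.4 CPM (n = 12, 42.9 to 148 CPM). NP-like neurons had 32.4 ± 16.6 CPM (n = 8) and the other NF-like cluster 23.3 ± 16.7 CPM (n = 15), while PEP1-like neurons had 2.33 ± 1.78 CPM (n = 16). The NF-like level was above the PEP1-like level in 12 of 12 samples, by 79.9 ± 30.5 CPM. Thus the type with the lowest or near-lowest Cacna2d1 had the highest Cacna2d3, and the reverse held in PEP1-like neurons. The added sham set gave high Cacna2d3 in Shox2/Ntng1 NF-like neurons (114 ± 21.1 CPM, n = 5) and Lmx1a/Iapp NP-like neurons (108 ± 5.90, n = 7) and low Cacna2d3 in SST-like neurons (6.49 ± 4.56, n = 6).

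Among the pores of transmitter release, Cacna1a (P/Q-type) was highest in the NF-like neurons. The S100a16/Kcnv1 cluster had 69.0 ± 39.4 CPM (n = 15, 36.6 to 194 CPM) and the Shox2/Ntng1 cluster 57.7 ± 13.9 CPM (n = 12), and the former was higher in 7 of 12 samples that held both. The lowest levels were 30.1 ± 12.5 CPM in PEP3-like (n = 11) and 29.8 ± 15.2 CPM in Nppb/Il31ra SST-like neurons (n = 12). Cacna1b, the N-type pore blocked by ziconotide, was the most even of the 10 genes in the labelled set, with a ratio of highest to lowest type mean of 1.70. In the added sham set Cacnb3 was more even (1.90, against 2.29 for Cacna1b). In the labelled set Cacna1b ran from 86.9 ± 37.7 CPM in S100a16/Kcnv1 NF-like (n = 15) to 51.2 ± 16.5 CPM in Shox2/Ntng1 NF-like neurons (n = 12). The former was higher in 11 of 12 samples. In the added sham set Shox2/Ntng1 NF-like neurons again had the lowest Cacna1b (101.5 ± 16.4 CPM, n = 5) and SST-like neurons the highest (232 ± 53.9, n = 6).

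Cacna1e (R-type) had a ratio of 69.2 between its highest and lowest type mean, the widest of the members with a lowest mean above 0 (Cacna1h, described below, was at 0 in 2 types). It was found in S100a16/Kcnv1 NF-like (13.1 ± 9.82 CPM, n = 15), PEP3-like (11.6 ± 10.3, n = 11) and PEP1-like neurons (8.33 ± 3.85, n = 16), and the glial-gene-high cluster had 9.39 ± 15.3 CPM (n = 7). The remaining types had means under 2 CPM, down to 0.190 ± 0.405 CPM in NP-like neurons (n = 8). PEP1-like exceeded PEP2-like neurons in 15 of 16 samples, by 6.50 ± 4.15 CPM, and the S100a16/Kcnv1 cluster exceeded the Shox2/Ntng1 cluster in 12 of 12, by 12.5 ± 10.1 CPM. Both pairs share a class name, so Cacna1e separated clusters within the peptidergic-like and within the neurofilament-like neurons. In the added sham set it was concentrated in the Kcng1/Insrr cluster (15.5 ± 13.7 CPM, n = 6, 7.91 to 43.0 CPM), and each of the other clusters had a mean of 1.36 CPM or less.

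The L-type pores had opposite orders in SST-like and NF-like neurons. Cacna1c was highest in Sst/Il31ra SST-like neurons (40.7 ± 13.8 CPM, n = 8, 26.7 to 63.0 CPM), lay at 30.9 ± 9.45 CPM in PEP3-like neurons (n = 11), and was lowest in Shox2/Ntng1 NF-like neurons (7.26 ± 7.91 CPM, n = 12, 0 to 22.5 CPM). SST-like exceeded NF-like neurons in 7 of 7 samples, by 34.2 ± 16.6 CPM. Cacna1d was highest in Shox2/Ntng1 NF-like (12.5 ± 4.86 CPM, n = 12) and NP-like neurons (12.0 ± 3.87, n = 8) and lowest in Sst/Il31ra SST-like neurons (3.73 ± 2.35, n = 8), and here NF-like exceeded SST-like neurons in 7 of 7 samples, by 8.82 ± 5.95 CPM. The same opposite order stood in the added sham set, where SST-like neurons had 72.1 ± 22.0 CPM of Cacna1c and 6.02 ± 2.17 CPM of Cacna1d (n = 6) and NF-like neurons had 11.6 ± 8.24 and 30.6 ± 10.1 CPM (n = 5). Cacna1h was highest in Sst/Il31ra SST-like neurons (3.50 ± 1.82 CPM, n = 8), above PEP1-like neurons in 8 of 8 samples, and was 0 in every sample of PEP2-like (n = 16) and Trpm8 cold-like neurons (n = 5). In the added sham set its highest means were 36.3 ± 14.4 CPM in a small Cd7/Nmu cluster (n = 3), 15.6 ± 5.58 CPM in SST-like (n = 6) and 14.9 ± 9.07 CPM in Shox2/Ntng1 NF-like neurons (n = 5).

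Cacnb3, which makes a cytoplasmic β subunit of the high-voltage-activated channels, was high in every type and still ordered. NP-like (431 ± 59.9 CPM, n = 8) and Sst/Il31ra SST-like neurons (420 ± 33.9, n = 8) were at the top and Shox2/Ntng1 NF-like neurons at the bottom (169 ± 36.1, n = 12). PEP2-like exceeded PEP1-like neurons in 16 of 16 samples, by 109 ± 35.2 CPM. In the added sham set NF-like neurons again had the lowest Cacnb3 mean, 254 ± 21.3 CPM (n = 5).

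**Figure D2:**
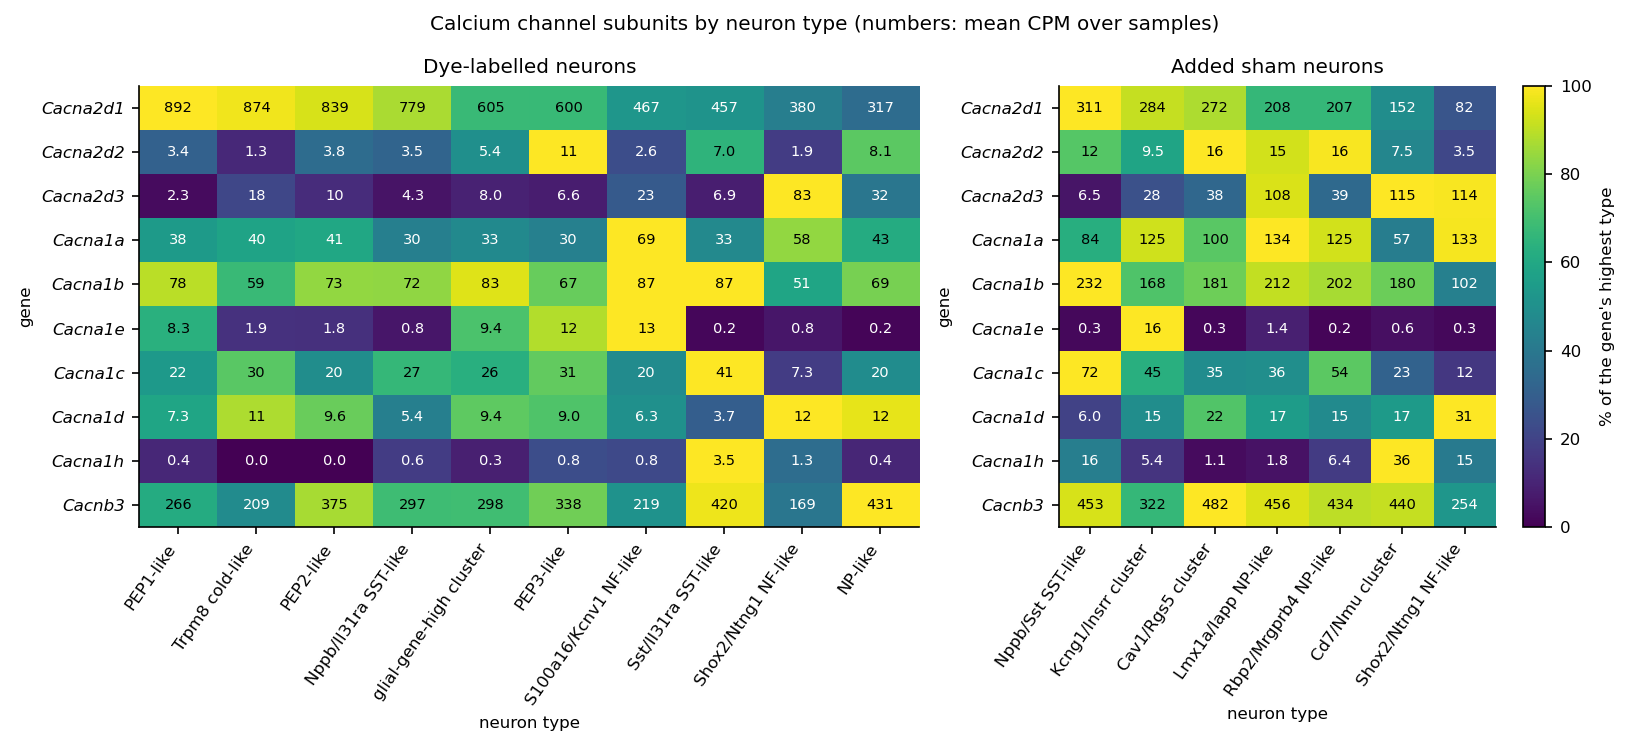
Heat map of the 10 subunit genes by neuron type in the labelled and the added sham set: the number in each field is the mean CPM over samples and the colour is its percentage of the gene's highest type mean in that set. Cacna2d3 and Cacna1d peak in Shox2/Ntng1 NF-like neurons of the labelled set, where Cacna1c and Cacnb3 are at their lowest.

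Over the 110 units of 1 type in 1 labelled DRG sample, the log2(CPM + 1) levels of Cacna2d1 and Cacna2d3 had a Pearson correlation of −0.56, the most negative of all pairs of members, and those of Cacna2d1 and Cacna2d2 one of −0.11. The most positive pair was Cacna2d2 with Cacnb3 (0.48). The units share samples and depth, so these are descriptions. Among 8451 genes with a mean of at least 10 CPM, the 5 whose pattern was most like that of Cacna2d1 were Gap43 (0.89), a growth cone protein, Tubb2b (0.84), a β-tubulin, Jpt1 (0.82), Rhoc (0.82), a small GTPase, and Rpl15 (0.82), a ribosomal protein.

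Sprr1a is a small proline-rich protein that sensory neurons switch on after axon injury, and here it was used to group single cells. The study also lists Sprr1a among the marker genes of its PEP1 and PEP2 subtypes, so a grouping by it is in part a grouping by type. It was detected in 788 of 930 labelled cells (84.7%, 37925 UMIs), sham samples included, and in 1 of 503 added sham cells (0.2%, 6 UMIs). Labelled sham samples had 160 ± 109.8 CPM of Sprr1a, and samples at 1, 3 and 7 days after SNC had 164 ± 47.9, 147 ± 23.1 and 147 ± 58.9 CPM. Its log2 differences from sham were 0.04 ± 0.41, −0.13 ± 0.45 and −0.11 ± 0.39 (adjusted p = 0.985, 0.995 and 1.0, edgeR), and the groups overlapped at each time, so the Sprr1a grouping is not a grouping by surgery. The Spearman correlation of Cacna2d1 with Sprr1a over the 930 cells was 0.51. Within single DRG samples it was positive in 16 of 16, with a median of 0.52 and a range of 0.15 to 0.62. The other members had correlations between −0.18 (Cacna1h) and 0.09 (Cacna1e) over the same cells. The injury genes Atf3 and Gal gave 0.67 and 0.60.

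Part of this relation ran along neuron types. The share of cells at or above the median Sprr1a level of the labelled cells (72.6 CPM) was 78.1% in PEP1-like, 76.2% in PEP2-like and 64.3% in Trpm8 cold-like neurons, the types with the highest Cacna2d1, and 5.4% in PEP3-like, 3.5% in Sst/Il31ra SST-like and 1.7% in NP-like neurons. Within types the correlation of Cacna2d1 with Sprr1a was 0.02 in PEP3-like, 0.04 in PEP1-like, 0.13 in NP-like, 0.22 in PEP2-like and 0.24 in Sst/Il31ra SST-like neurons. It was 0.34 in Trpm8 cold-like neurons, 0.43 in the glial-gene-high cluster, 0.44 in both Shox2/Ntng1 NF-like and Nppb/Il31ra SST-like neurons and 0.58 in S100a16/Kcnv1 NF-like neurons. The relation was thus near 0 in PEP1-like neurons and strongest in a neurofilament-like cluster.

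For a test over samples, the cells of each labelled DRG sample were split at that median into Sprr1a-high and Sprr1a-low cells (465 each), summed, and compared by edgeR's quasi-likelihood test with the DRG sample as a block, with levels as TMM-normalised CPM (scaled between samples by edgeR). Cacna2d1 in Sprr1a-high cells ran from 529 to 1164 CPM over 16 samples with a median of 764, and in Sprr1a-low cells from 234 to 753 CPM with a median of 479. Sprr1a-high cells had the higher level in 15 of 16 samples, all except 7 d replicate 3 (564 against 731 CPM). The difference was 0.68 ± 0.09 on the log2 scale (SE), a 1.60-fold difference, with a Benjamini-Hochberg adjusted p of 4.65e-06. At an adjusted p under 0.05, 15.8% of the 14374 genes tested were called higher and 15.8% lower, 31.6% in all, and of the 10 members 1 was called higher and 4 lower. The members' median log2 difference was −0.13 against −0.01 for all genes. Cells of the 2 classes differed in type: 297 of 465 Sprr1a-high cells (63.9%) and 88 of 465 Sprr1a-low cells (18.9%) were PEP1-like or PEP2-like. The test over all types does not separate Sprr1a level from type.

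Cacna1c was lower in Sprr1a-high cells in 15 of 16 samples, all except sham replicate 2. Its level ran from 9.11 to 29.0 CPM (median 17.9) in Sprr1a-high and from 17.4 to 35.3 CPM (median 22.7) in Sprr1a-low cells, and the log2 difference was −0.52 ± 0.13 (adjusted p = 0.0031, edgeR). Cacna2d2 was lower in 14 of 16 samples, with medians of 3.01 and 4.81 CPM and a log2 difference of −0.76 ± 0.22 (adjusted p = 0.0113). Cacnb3 was lower in 13 of 16, at 268 ± 41.7 against 313 ± 36.8 CPM, with a log2 difference of −0.22 ± 0.06 (adjusted p = 0.00374). Its call was lost with thinning to 20000 UMIs (adjusted p = 0.0658) and in sham samples only (adjusted p = 0.325). Cacna1h was lower in 13 of 16 samples, with 38 UMIs in all in Sprr1a-high and 169 in Sprr1a-low cells, and its log2 difference was −1.93 ± 0.67 (adjusted p = 0.0322). Over 25 alternatives it ran from −2.58 with the wider split of Sprr1a to −0.30 with limma on the mean of cells (adjusted p = 0.00264). Its call was lost when any 1 of 6 samples was left out: sham replicate 3, 1 d replicates 1 and 3, 3 d replicates 2 and 3, or the 7 d sample made of replicates 1 and 2 (adjusted p = 0.0514 to 0.0682).

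Of the 10 genes, 5 did not pass the test: Cacna2d3 (−0.51 ± 0.26, adjusted p = 0.152, edgeR), Cacna1e (0.25 ± 0.28), Cacna1d (−0.03 ± 0.19), Cacna1a (−0.01 ± 0.11) and Cacna1b (0.00 ± 0.06). Cacna1a had 44.4 ± 14.5 CPM in Sprr1a-high and 44.9 ± 10.3 CPM in Sprr1a-low cells and Cacna1b 75.2 ± 21.9 and 75.2 ± 19.9 CPM. The L-type pore Cacna1d had 8.57 ± 3.47 and 8.54 ± 2.03 CPM, so the mean levels of these 3 pore genes lay within the spread between samples. With a wider split of Sprr1a (above 172 against below 14.4 CPM), Cacna2d3 (−1.08, adjusted p = 0.00326) and Cacna1e (0.87, adjusted p = 0.0348) also passed. With each cell thinned to 20000 UMIs 6 of the 10 genes kept enough counts to be tested, and Cacna2d1 alone of these passed (Cacna1c −0.35, adjusted p = 0.223, and Cacnb3 −0.17). Cacna2d2, Cacna1d, Cacna1e and Cacna1h were too sparse after thinning. In the sham samples alone Cacna2d1 was the member that passed (0.86, adjusted p = 0.04). The median depth was 225898 UMIs in Sprr1a-high and 257409 UMIs in Sprr1a-low cells, and the glial sum was 306 and 283 CPM. The part of depth in these differences was tested only by the thinning.

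**Figure D3:**
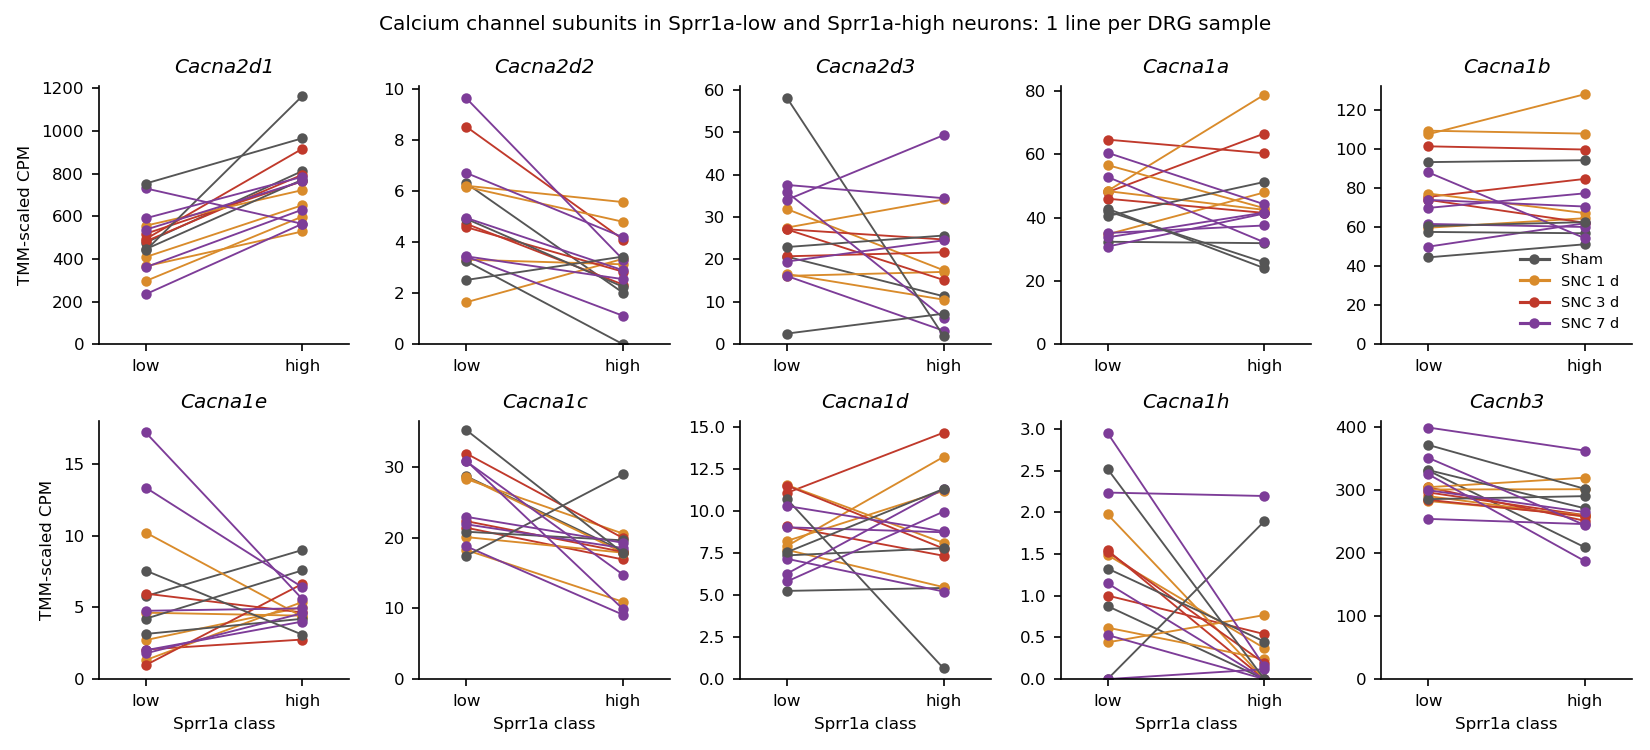
TMM-normalised level (CPM) of each subunit gene in the Sprr1a-low and Sprr1a-high cells of each of the 16 labelled DRG samples, with a line joining the 2 values of a sample. Cacna2d1 is higher in Sprr1a-high cells in 15 of 16 samples and Cacna1c lower in 15 of 16, while the lines of Cacna1a and Cacna1b go both ways.

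The comparison of Sprr1a-high with Sprr1a-low cells was repeated inside 1 type at a time, which holds the type name fixed. It could be done in PEP1-like and PEP2-like neurons and in Shox2/Ntng1 NF-like neurons, where 0.239%, 0.378% and 2.52% of genes were called and 0 of 21 tests of members passed (6 at an unadjusted p under 0.05, lowest adjusted p 0.16, edgeR). These fits had 10, 16 and 12 sums of a sample and class, against 32 over all types, so an absence of calls shows less here. DESeq2 called 1, a lower Cacna1a in PEP2-like neurons (−0.76 ± 0.21, adjusted p = 0.0334, against −0.73 ± 0.21 and an adjusted p of 0.16 in edgeR). Of 14 alternatives for this gene 13 put it lower in Sprr1a-high cells, limma on the mean of cells put it at 0.13, and adjusted p-values ran from 0.0334 to 0.878. The log2 difference of Cacna2d1 was −0.19 ± 0.14 in PEP1-like, 0.16 ± 0.12 in PEP2-like and 0.33 ± 0.12 in Shox2/Ntng1 NF-like neurons (adjusted p = 0.915, 0.762 and 0.165). In PEP1-like neurons limma on the mean of cells turned it to 0.643 (adjusted p = 0.415), the 1 reversal among 12 alternatives. In the NF-like neurons limma on the mean of cells gave 0.69 for Cacna2d1 with an adjusted p of 0.00778, edgeR without a filter on low counts 0.34 (0.0403), and edgeR without 7 d replicate 3 0.46 (0.0446). The difference between types in this contrast was not tested. The contrast did not differ detectably between SNC and sham samples: for Cacna2d1 the interaction was −0.24 on the log2 scale, members lay between −0.92 (Cacna1h) and 0.65 (Cacna2d2), and 0 of 14374 genes were called (0.0%; 694 at an unadjusted p under 0.05 in edgeR).

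Of 16 other channel subunits, 10 were tested against Sprr1a, and 3 rose and 1 fell. Over all genes tested 15.8% were called higher and 15.8% lower, which is also the background for the further counts here. Cacnb4 (0.39 ± 0.07, adjusted p = 0.000175) and Cacnb1 (0.29, adjusted p = 0.00343), further β subunits, and Cacng4 (0.65, adjusted p = 0.00218), a γ subunit that also serves AMPA receptors, were higher in Sprr1a-high cells, and Cacng5 was lower (−2.70, adjusted p = 0.000441). Over all types together the β subunit genes went both ways, with Cacnb3 lower and Cacnb1 and Cacnb4 higher. Within types Cacnb4 did not pass. Its difference was 0.05 in PEP1-like, 0.15 in PEP2-like and 0.42 in Shox2/Ntng1 NF-like neurons (adjusted p = 0.986, 0.868 and 0.0749). Of 4 RGK genes, small GTPase-like proteins that inhibit these channels, 3 were tested: Rrad was higher (1.98, adjusted p = 0.0126) and Rem2 lower (−2.0, adjusted p = 0.00049). Of 16 partner genes 13 were tested, and 1 rose and 4 fell. Stac2 was higher (1.25, adjusted p = 1.17e-07), and those that fell included its relative Stac (−1.0, adjusted p = 0.000132) and the presynaptic genes Rims1 (−0.66) and Rims2 (−0.20). The T-type genes Cacna1g and Cacna1i were too sparse to be tested, with 71 and 20 UMIs in all labelled cells. All p-values here are edgeR's, adjusted over all genes tested.

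The comparison of SNC with sham asked whether the subunits changed in dye-labelled neurons after injury. Its sham samples were not free of Sprr1a. They had 160 ± 109.8 CPM, against 153 ± 45.3 CPM in the 12 SNC samples and a median of 0 CPM in added sham libraries. An absence of calls below is therefore against such a sham and not against neurons without Sprr1a. Levels are TMM-normalised CPM of all cells of a DRG sample, in which a change in the mix of types and a change of level within cells cannot be told apart. PEP1-like cells, the type with the highest Cacna2d1, were 10.4% to 16.7% of the cells in the 4 sham samples and 20.8% to 31.2% in the 12 SNC samples, without overlap. PEP2-like cells, whose Cacna2d1 was close to that level, were 8.3% to 41.7% in sham and 10.4% to 33.3% in SNC samples. The 2 types together were 19.8% to 58.3% in sham and 33.3% to 57.3% in SNC samples, so these shares overlapped. Cells were picked by hand, which can set such shares, and their part in the differences was not tested. Cacna2d1 was 940, 545, 658 and 526 CPM in sham replicates 1 to 4. It was 509, 650, 487 and 457 CPM in the 4 samples at 1 day, 611, 650 and 674 CPM in the 3 at 3 days, and 690, 622, 729, 326 and 494 CPM in the 5 at 7 days. The groups overlapped at each time, and sham replicate 1, which had the lowest UMI total and the highest glial sum, was the highest of all 16. The lowest, 7 d replicate 5, held 20 directly and 4 indirectly injured cells by its label, and 7 d replicate 6 (494 CPM) 4 and 20. The log2 difference from sham was −0.35 ± 0.22 at 1 day, −0.06 ± 0.23 at 3 days and −0.22 ± 0.20 at 7 days (adjusted p = 0.653, 0.995 and 1.0, edgeR), and in a fit with a term for that year it was 0.13 at 1 day and 0.41 at 3 days. A 7-day difference within the samples of the earlier year was −0.09 (adjusted p = 0.997). By the study's list sham replicate 2 shared its day of reverse transcription with 7 d replicate 3, and sham replicate 3 with 7 d replicate 4. Cacna2d1 was higher at 7 days in both pairs (545 and 622 CPM, and 658 and 729 CPM), which turned the direction: in a fit with the day as a block, added once the data had been seen, the value over these 4 samples was 0.17 ± 0.06 (adjusted p = 0.581, edgeR, 0 of 13326 genes called and 1073 at an unadjusted p under 0.05). Cacna1a (0.30 ± 0.16) and Cacna1b (0.38 ± 0.16) were also higher in both pairs and did not pass (adjusted p = 0.723 and 0.629).

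Cacna1a had the smallest p of the members. It was 28.7, 39.9, 32.3 and 43.2 CPM in sham replicates 1, 2, 3 and 4, and 40.2, 46.4, 46.6 and 65.3 CPM at 1 day. At 3 days it was 55.1, 63.4 and 44.2 CPM, above every sham sample, and at 7 days 39.2, 49.7, 39.3, 35.6 and 35.7 CPM, which overlapped sham. The log2 difference was 0.45 ± 0.18 at 1 day (adjusted p = 0.535) and 0.57 ± 0.19 at 3 days (adjusted p = 0.966) and did not pass in edgeR. Cacna1b had 65.7 ± 19.5 CPM in sham (n = 4), 90.3 ± 27.1 CPM at 1 day (n = 4), 83.4 ± 16.9 CPM at 3 days (n = 3) and 64.7 ± 8.13 CPM at 7 days (n = 5). Both release pores thus had their higher means at 1 and 3 days, the times whose samples were all of the later year, and year was tested only in the fit with a term for it. With that term the log2 difference of Cacna1b at 1 day was 0.29 in place of 0.45, the lowest of 24 alternatives. Cacna1a at 3 days ran from 0.28 (thinning) to 0.80 (limma on the mean of cells) over 24 alternatives.

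The remaining members overlapped sham at every time. Cacnb3 had 299 ± 26.0, 292 ± 16.8, 280 ± 5.15 and 283 ± 54.1 CPM in sham and at 1, 3 and 7 days, and Cacna1c 21.3, 20.0, 22.6 and 18.7 CPM. Group means in the same order were 3.60, 4.36, 4.78 and 3.87 CPM for Cacna2d2, 24.0, 21.9, 23.3 and 28.2 CPM for Cacna2d3, 4.94, 4.50, 3.77 and 5.71 CPM for Cacna1e, and 8.23, 9.43, 10.3 and 8.34 CPM for Cacna1d. Cacna1h had 0.587 ± 0.367 CPM in sham and 0.873 ± 0.850 CPM at 7 days. At no time was a member called, and by edgeR 0 of 14241 genes passed at 1, 3 or 7 days (0.0% each, with 1243, 594 and 475 genes at an unadjusted p under 0.05, of them 1, 1 and 0 members). DESeq2 called 9, 1 and 0 genes. For the mean of the 3 times the members lay between −0.21 ± 0.18 (Cacna2d1) and 0.39 ± 0.15 (Cacna1a) and 0 genes were called (828 at an unadjusted p under 0.05, and 0 by DESeq2). Of the members, Cacna1a at 3 days had levels that did not overlap those of sham, as had 6.07% of all genes tested at that time (2.89% at 1 day and 0.892% at 7 days). The median log2 difference of the members was 0.07, 0.20 and 0.07 at the 3 times and that of all genes was within 0.01 of 0.

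**Figure D4:**
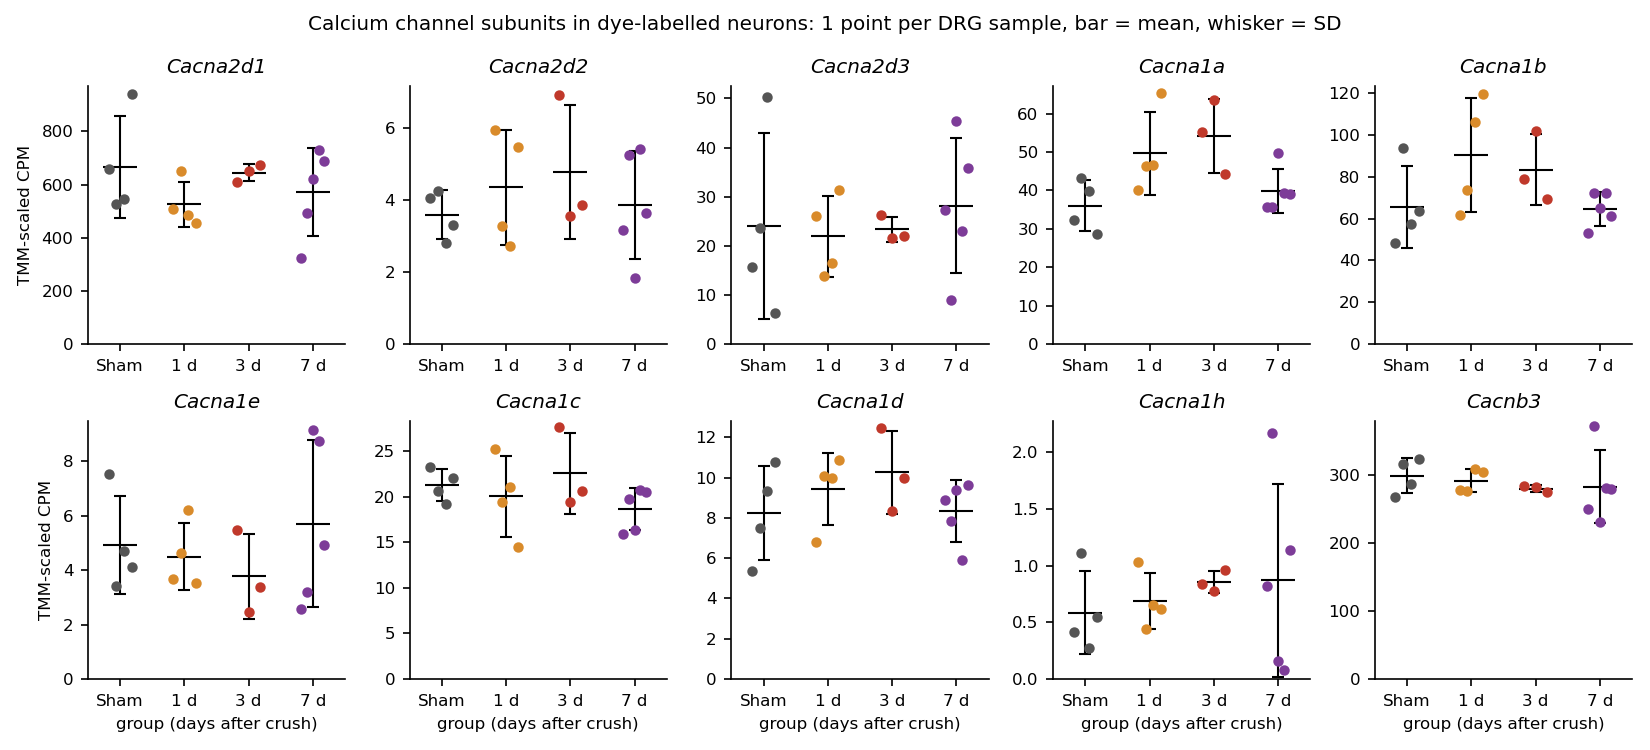
TMM-normalised level (CPM) of the 10 subunit genes in each labelled DRG sample by group (sham, and 1, 3 and 7 days after SNC), with bars for the mean and SD. The groups overlap for each gene at each time except Cacna1a at 3 days, where 44.2 to 63.4 CPM lie above the highest sham sample (43.2 CPM).

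Within single types, SNC could be compared with sham in 7 types and 19 contrasts. None of the 158 tests of members passed in edgeR (11 at an unadjusted p under 0.05, lowest adjusted p 0.278), and 3 genes passed in all, with at most 0.00986% of genes called in a contrast (0.0094% in PEP1-like neurons at 1 and at 3 days). Over 318 pairs of a contrast and an alternative, 107 called at least 1 gene and the most was 272. The lowest adjusted p was that of Cacna2d1 in PEP1-like neurons at 1 day. Its level there was 1432, 956, 1014 and 762 CPM in sham replicates 1 to 4 and 776, 766, 665 and 800 CPM in 1 d replicates 1 to 4, so that 3 of 4 sham samples lay above all 1 d samples. The log2 difference was −0.58 ± 0.19 (adjusted p = 0.278), and DESeq2 (−0.60, adjusted p = 0.0437) and edgeR without the filter on low counts (−0.55, adjusted p = 0.0173) called it. Over 23 alternatives it ranged from −0.73 to −0.31, with adjusted p from 0.0173 to 0.719. In PEP2-like neurons Cacna2d1 was 753 ± 66.5 CPM at 1 day (n = 4) and 774 ± 164 CPM at 7 days (n = 5), and sham samples had 799 to 1114 CPM (n = 4), with log2 differences of −0.45 ± 0.17 and −0.43 ± 0.16 (adjusted p = 0.653 and 0.998). In S100a16/Kcnv1 NF-like neurons at 3 days the difference was instead 0.56 ± 0.21 (adjusted p = 0.569). These opposite signs were not compared by a test.

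None of the other subunits (9 of 16 tested), RGK genes (3 of 4) or partners (13 of 16) was called at any time after SNC in edgeR. Those with the smallest p at each time were Dpysl2 at 1 day (−0.67 ± 0.31), whose product binds the N-type channel, Cacng5 at 3 days (−1.99 ± 0.72, adjusted p = 0.966) and Cacnb4 at 7 days (0.28 ± 0.14, adjusted p = 1.0). Cacnb4 had 89.4 ± 6.28 CPM in sham and 108 ± 23.6 CPM at 7 days. Cacna1g had 4 to 13 UMIs per sham sample and 0 to 11 per SNC sample. At 1 day it had 0 to 0.207 CPM (0 to 4 UMIs), below the 0.331 to 1.10 CPM of sham, and at 3 and 7 days it overlapped sham. Cacna1i had 0 UMIs in each sham and 7 d sample and at most 7 at 3 days, and neither Cacna1g nor Cacna1i could be tested at this depth.

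The largest differences of the family lay between the 2 kinds of sham neurons. Of the 10 members, 8 were called between labelled sham (4 samples) and added sham (7 libraries), 1 higher and 7 lower in labelled neurons, and 7 did not overlap. Of all 15793 genes tested 27.7% did not overlap between these groups, and 16.5% were called higher and 24.2% lower (40.6% in all) at an adjusted p under 0.05 in edgeR. Library and the mix of types went with the sets and cannot be told apart here. The study calls 936 neurons fluorescently labelled, as many as the 17 labelled libraries held before filtering. It does not use that word for its further neurons. Dye labelling may therefore also have gone with the sets, and its part was not tested. The dates of the added sham libraries are not given in the sources used here. Cacna2d1 was 546 to 933 CPM (median 616) in labelled and 133 to 255 CPM (median 188) in added sham samples, with no overlap, and a log2 difference of 1.78 ± 0.19 (3.43-fold, adjusted p = 6.5e-05). It ranged from 1.63 to 2.05 over 17 alternatives. Sprr1a went with it, at 161 ± 107 CPM in labelled sham and a median of 0 CPM in added sham libraries.

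The pore genes that passed were lower in labelled sham. Cacna1a was 28.5 to 46.9 CPM in labelled and 66.3 to 205 CPM in added sham samples (−1.67 ± 0.26, adjusted p = 0.000366), and Cacna1b 48.5 to 101.6 and 132 to 190 CPM (−1.30 ± 0.18, adjusted p = 0.000202). Neither overlapped. Cacna1c (19.2 to 23.3 against 24.7 to 48.3 CPM, −0.72 ± 0.19, adjusted p = 0.00953) and Cacna1d (5.40 to 10.7 against 10.7 to 35.3 CPM, −1.18 ± 0.32, adjusted p = 0.0111) were also lower in labelled sham, the latter by ranges that nearly touched. Cacna1h had the largest ratio, 0.272 to 1.21 against 3.84 to 8.94 CPM (−3.23 ± 0.49, adjusted p = 0.000309), and over 16 alternatives it ran from −3.88 to −1.21, the smallest with limma on the mean of cells. Of the α2δ genes besides Cacna2d1, Cacna2d2 was 2.81 to 4.62 against 6.17 to 13.7 CPM (−1.45 ± 0.30, adjusted p = 0.00228) and Cacna2d3 overlapped at 6.29 to 50.4 against 48.8 to 72.6 CPM (−1.31 ± 0.39, adjusted p = 0.0181). Without sham replicate 3 the calls of Cacna1d (adjusted p = 0.0512) and Cacna2d3 (adjusted p = 0.0718) were lost. Cacna1e (0.63 ± 0.63) and Cacnb3 (−0.20 ± 0.14, 306 ± 33.8 against 353 ± 58.4 CPM) did not pass.

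**Figure D5:**
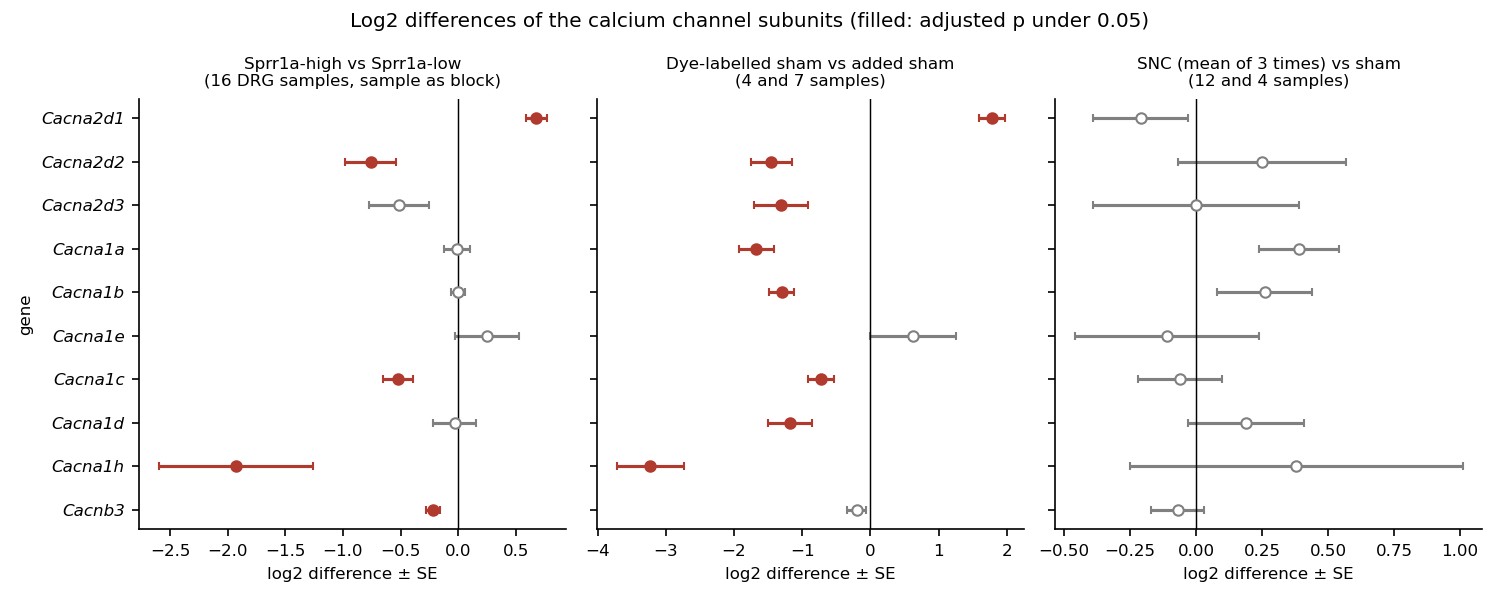
Log2 difference with its SE (bars) for each subunit gene between Sprr1a-high and Sprr1a-low cells, between labelled and added sham, and between SNC (mean of the 3 times) and sham, on axes of different scale. Filled points passed an adjusted p under 0.05 in edgeR: 5 genes for Sprr1a, 8 for labelled against added sham and 0 for SNC against sham.

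Clusters of the 2 sets that share a class name were set side by side for Cacna2d1, given as values without a test. Their marker genes were not all the same, with Sst high in the labelled Sst/Il31ra and the added SST-like cluster and not in the labelled Nppb/Il31ra cluster. In Shox2/Ntng1 NF-like neurons sham levels were 169, 421 and 514 CPM in 3 labelled samples and 55.9 to 101.6 CPM (median 88.5) in 5 added libraries. In NP-like neurons they were 220, 317 and 350 CPM in 3 labelled samples, against 147 to 270 CPM (n = 7) and 170 to 231 CPM (n = 6) in the added clusters led by Lmx1a/Iapp and Rbp2/Mrgprb4, which overlapped. In SST-like neurons the labelled Nppb/Il31ra cluster had 799, 856 and 969 CPM and the Sst/Il31ra cluster 369 and 402 CPM, while the added SST-like cluster had 212 to 454 CPM (n = 6). The members' median log2 difference in this comparison was −1.24 against −0.15 for all genes.

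Other subunits and partners differed as well, as did 40.6% of all genes tested (16.5% higher and 24.2% lower in labelled sham). Of 12 other subunits tested, Cacng4 was higher in labelled sham (1.04) and Cacnb4 (−0.56, 81.9 to 101 against 105 to 172 CPM), Cacng2 (−1.94) and Cacng3 (−0.87) were lower. Of the RGK genes Rrad was higher (2.93). Of 14 partners 4 were higher and 4 lower. Stac2 (7.42), Usp5 (1.55) and Dpysl2 (1.11) were among the higher ones, and Lrp1 (−1.40), Rims1 (−1.12), Cabp1 (−1.10) and Thbs4 (−3.47), a thrombospondin that binds α2δ subunits, were lower in labelled sham. Cacna1g did not pass (0.15 ± 0.55, 0.332 to 1.10 against 0.252 to 0.822 CPM).

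Among added sham libraries, days 1 to 7 (4 libraries) were set against day 0 (3 libraries). Cacna2d1 was 223, 262 and 176 CPM on day 0 and 189 and 195 CPM on day 1, 137 CPM on day 3 and 254 CPM on day 7, with overlap (−0.22 ± 0.22, adjusted p = 0.733). Cacna1h was 4.13, 3.94 and 4.24 CPM on day 0 and 8.82, 9.26, 6.42 and 7.04 CPM later (0.91 ± 0.31), and Cacna1d was 15.8, 14.8 and 11.1 CPM on day 0 and 20.0, 20.9, 36.4 and 19.4 CPM later (0.77 ± 0.30). These 2 members did not overlap between the groups, as 10.9% of all genes tested did not, and had unadjusted p-values under 0.05, and neither passed (adjusted p = 0.522 for both). By edgeR 0 of 16161 genes were called (0.0%, 1503 at an unadjusted p under 0.05), and DESeq2 called 197. Without day 0 replicate 3 edgeR called 1992 genes, none of them a member. The lowest p of the other subunits was that of Cacng1 (−3.56 ± 0.86, adjusted p = 0.522).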

How the data were processed

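Single dye-labelled DRG neurons (17 libraries) and added sham neurons (7 libraries) were profiled by UMI-based single-cell RNA-seq. The deposited tables hold raw UMI counts per gene and cell, which the authors made, per the submitters' processing notes, with STAR, featureCounts (Subread), SAMtools and UMI-tools on Rnor_6.0. No table carried the dye, so it was not used. The 7 d replicates 1 and 2, which are libraries of 1 DRG sample by their names, were summed. The study's list gives 1 d replicates 3 and 4 as separate DRG samples, and likewise 7 d replicates 5 and 6. They were kept apart here, although each pair shares the first part of its name and its day of reverse transcription. The labels do not say whether the samples of a pair came from different rats.

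A cell was kept with 500 or more genes, 1000 or more UMIs and a share of 13 mitochondrial protein genes under 5%. No doublet caller was run, because cells were picked singly. Each set was clustered apart with Seurat 5.3.0 in R 4.3.3 (LogNormalize, 2000 variable genes, 40 principal components, resolution 0.5), and clusters were named from marker lists. Counts were summed per DRG sample, or per sample and type or Sprr1a class with at least 3 cells, and tested with edgeR 4.0.16 (filterByExpr, TMM, quasi-likelihood test) over all genes passing the filter, with Benjamini-Hochberg adjustment and a threshold of 0.05. The comparison of Sprr1a classes had the DRG sample as a block, since both classes came from the same samples. In SNC against sham all 16 labelled samples shared 1 fit. The alternatives were DESeq2 1.42.0, limma 3.58.1 on the mean of cells, DESeq2 size factors, no filter on low counts, thinning to 20000 UMIs, all mitochondrial genes in the cell filter, a wider split of Sprr1a, a term for year of reverse transcription, a block for shared days of reverse transcription (added after seeing the data), clustering resolutions of 0.3 and 0.8, and leaving out each sample. Scripts ran in Python 3.11.15 with NumPy 2.4.6, pandas 2.3.3, SciPy 1.17.1 and matplotlib 3.10.9, and the fits were checked on simulated counts. Of simulated log2 changes of 1, the fits called 37.4% for 1 day after SNC and 4.04% for added sham days. They called 24.5% for labelled against added sham and 77.9% for the Sprr1a classes. Except for Sprr1a most changes of that size were thus missed, which limits what an absence of calls can show.

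The 10 genes and the lists of 36 other subunits, RGK genes and partners (2 of which were not matched by name in the tables) were chosen with earlier results of these data known. All 10 genes were named in every comparison. Other listed genes were named where they passed (some are not reported here), or where they had the smallest p if none passed, and Cacna1g, Cacna1i and Cacnb4 were always included. Totals of 4002503 to 40733436 UMIs per sample set the counting precision, which is least for Cacna1h, Cacna2d2 and Cacna1e. Promoters came from RefSeq (GRCr8), with no entry used for Cacna1h.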

Additional observations from a re-analysis of the deposited data

How the results depend on the processing

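Counted once per gene, set and alternative, the highest and the lowest type level of a member moved by less than the spread between samples in 78 cases each, and by more in 2 each. The type at either end could still change with the clustering. In labelled neurons Cacna1d was highest in an NP-like cluster at resolution 0.3 (12.0 CPM) and in a Trpm8 cold-like cluster at 0.8 (12.5 CPM). At 0.3 Cacna1e was highest in PEP3-like neurons (11.6 CPM). Cacna1b was then highest in an SST-like cluster (91.1 CPM) and lowest in Trpm8 cold-like neurons (58.8 CPM). With each named log2 difference counted once under each alternative, 698 values kept their direction and side of the threshold, 38 reversed, 9 newly passed and 14 no longer passed. Time after SNC is confounded with year of reverse transcription, the dye of a cell is unknown, and Cacna1h rests on 207 UMIs in labelled cells.

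Genes called at 1 day after SNC (0 in edgeR) became 9 with DESeq2 and 1 with year as a term, and 0 to 1 when 1 sample was left out (1 without 7 d replicate 6). At 3 days (0) they became 1 each with DESeq2, no filter, thinning, limma and year, and 0 to 1 when 1 sample was left out (1 without 3 d replicate 3). For the mean of the 3 times (0) they became 1 with year. Among added sham days (0) they became 197 with DESeq2, 1 with thinning and 0 to 1992 without 1 library (1992 without day 0 replicate 3). The Sprr1a classes (4542 genes, 5 members) gave 2298 genes and 1 member with thinning and 247 genes and 1 member in sham samples only, and without the block by DRG sample 2756 genes. The interaction of Sprr1a class with SNC (0) gave 1 gene with thinning. Within single types 5 to 879 genes were called for Sprr1a over 40 pairs of a type and an alternative. Members called within a type (0) became 1 for SNC with DESeq2 and with no filter. For Sprr1a they became 1 with DESeq2, with no filter and with limma, and 0 to 1 without 1 sample (1 without 7 d replicate 3).

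The reversals were of differences that did not pass. Against Sprr1a, Cacna1a became 0.165 with thinning, 0.20 with the wider split of Sprr1a, 0.004 without the block and 0.050 in SNC samples only, and −0.064 to 0.035 without 1 sample. Cacna1b became −0.002 with DESeq2, −0.001 with its size factors, −0.005 with no filter, −0.216 with thinning, −0.066 with limma and −0.018 in SNC samples only, and −0.018 to 0.050 without 1 sample. Cacna1d became 0.021 without the block and 0.053 in SNC samples only, and −0.103 to 0.086 without 1 sample, and Cacna1e became −0.034 without the block. Cacna2d1 within PEP1-like neurons became 0.643 with limma. In SNC against sham, Cacna2d1 became 0.126 at 1 day with year, and at 3 days 0.012 with limma, 0.414 with year and −0.169 (without sham replicate 4) to 0.130 (without sham replicate 1). At 7 days it became 0.168 with the day of reverse transcription as a block. Cacna1e at 3 days became 0.062 with limma and 0.435 with year, and Cacna1h at 7 days ran from −0.101 (without 7 d replicate 6) to 1.136 (without sham replicate 4). The interaction of Cacna1h ran from −1.750 (without sham replicate 3) to 0.877 (without sham replicate 2). The causes were not tested. Replicate numbers do not pair sham with SNC samples, since they were given in accession order.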
